A study of Arabidopsis thaliana with 12 samples.

Results

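The 34 genes described here encode the enzymes and carriers that turn the oil of an Arabidopsis thaliana seed into sugar. They were chosen by gene identifier as listed genes of triacylglycerol breakdown, peroxisomal import, beta-oxidation, the glyoxylate cycle and gluconeogenesis, and they are 34 of the 17751 genes with counts in every library. The rule names genes and uses no measured value, but the genes were chosen with earlier results of these data known. All 34 had counts in all 12 libraries, and the lowest count of any of them in any library was 121.

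Oil is the main reserve of this seed. As background, lipases release fatty acids and glycerol from the oil body, an ABC transporter brings the fatty acids into the peroxisome, and beta-oxidation cuts them into acetyl-CoA. The glyoxylate cycle joins acetyl-CoA units into 4-carbon acids, which phosphoenolpyruvate carboxykinase feeds into sugar synthesis until the seedling can photosynthesise.

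Polyadenylated RNA was sequenced from whole germinating seeds grown at 21 °C with 16 h of light per day. Seeds were on MS medium at 1X strength with 100 mM NaCl added or on MS alone, here called control medium. The genotypes were ago4-2 and ago4-3, which carry different mutant alleles of AGO4, an ARGONAUTE protein of RNA-directed DNA methylation, and Col-0, the ecotype that the labels name with no ago4 allele. This gives 6 groups (ago4-2 on NaCl and on control medium, ago4-3 on NaCl and on control medium, Col-0 on NaCl and on control medium) with 2 libraries each. The design text calls them biological replicates, but nothing states whether they came from separate seed lots, so p-values measure the spread between these libraries only. The labels do not say how long after sowing seeds were taken.

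Counts per library were 18168653 to 47517007. AGO4 transcript was at 0.729 and 0.549 CPM (the count as a share of its library, scaled by TMM, edgeR's correction for library composition) in ago4-3 on NaCl, against 46.9 and 38.9 CPM in Col-0 on NaCl. On control medium it was at 1.35 and 1.15 CPM in ago4-3, against 44.6 and 46.8 CPM in Col-0. In ago4-2 it was at 38.9 and 35.4 CPM on NaCl and 40.4 and 49.1 CPM on control medium, close to Col-0, so AGO4 level checks the ago4-3 label and not that of ago4-2. The 4 seed maturation markers (cruciferins CRA1 and CRC, oleosins OLEO1 and OLEO2) summed to 9152 and 10204 CPM in ago4-2 on NaCl, 1720.02 and 1622 CPM in ago4-3 on NaCl and 672 and 1022 CPM in Col-0 on NaCl. On control medium they summed to 1519 and 1419.7 CPM in ago4-2, 249.5 and 166 CPM in ago4-3 and 139 and 182 CPM in Col-0. Thus storage transcripts were present in every library, and their sum was higher on NaCl in each genotype. It was higher in ago4-2 than in Col-0 in both media. In ago4-3 it was above Col-0 on NaCl and overlapped Col-0 on control medium. Of the 4, CRC overlapped between the media in Col-0 after scaling. It had 1371 and 2923 unscaled counts there on NaCl, against 1839 and 1185 on control medium. The 3 endosperm markers summed to 146 and 144 CPM in ago4-2 on NaCl, against 295 and 273 CPM on control medium, to 46.0 and 51.8 CPM in ago4-3 on NaCl, against 79.9 and 51.5 CPM, and to 87.0 and 111 CPM in Col-0 on NaCl, against 129.8 and 147 CPM. Their sum was thus lower on NaCl in ago4-2 and Col-0 and overlapped between the media in ago4-3. It was higher in ago4-2 than in Col-0 in both media. Of the 3 (EPR1, MAN7 and EXPA2), MAN7 went the other way with salt in each genotype after scaling. In ago4-2 MAN7 had 1278 and 1857 unscaled counts on NaCl, against 530 and 951 on control medium. The 3 green tissue markers summed to 3783 and 4093 CPM in ago4-2 on NaCl, against 3590.0 and 3084 CPM on control medium, to 5233 and 4506 CPM in ago4-3 on NaCl, against 2854 and 3156 CPM, and to 4408 and 5409 CPM in Col-0 on NaCl, against 2537 and 2219 CPM. Their sum was thus higher on NaCl in every genotype, with the smallest gap in ago4-2. It was mostly RBCS1A, and the other 2 markers, LHCB1.3 and LHCB1.5, did not all follow it. After scaling, LHCB1.3 overlapped between the media in ago4-2, and LHCB1.5 was lower on NaCl in both mutants. LHCB1.5 counts were low, at 10 and 13 in ago4-2 on NaCl and 12 and 74 on control medium before scaling. The root hair marker PRP3 was at 2.02 to 3.07 CPM on NaCl and 0.248 to 1.15 CPM on control medium. These markers moved with salt or genotype, and their part in the results was not tested. In bulk RNA of whole seeds, fewer cells of a type and less RNA per cell cannot be told apart. The ago4-2 control libraries stood further from each other than any other pair, with a chi-square per gene of 154, against 14.1 to 30.1 in the other 5 groups. This value does not show which of the 2 is unusual. Their TMM factors were 0.852 in replicate 1 and 1.09 in replicate 2, beside 0.879 and 0.895 in ago4-2 on NaCl. Several results are therefore also given with 1 of these control libraries left out.

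The 34 transcripts spanned a wide range of levels, and the first 4 places and the last were held by the same genes in every group. Per kilobase of exon (TAIR10.1 annotation), ICL (AT3G21720), isocitrate lyase, ranked 1st in all 6 groups, with 7573 ± 36.6 CPM per kb in ago4-2 on NaCl and 4162 ± 51.2 CPM per kb in Col-0 on control medium (SD, n = 2). MLS (AT5G03860), malate synthase, was 2nd and PCK1 (AT4G37870), phosphoenolpyruvate carboxykinase, was 3rd in all 6 groups, at 1812 ± 2.8 and 1009.7 ± 13.9 CPM per kb in ago4-2 on NaCl, against 1008 ± 0.93 and 641 ± 29.2 CPM per kb in Col-0 on control medium. KAT2 (AT2G33150), the main thiolase of seed oil beta-oxidation, was 4th throughout. The early steps were far lower per length. SDP1 (AT5G04040), the lipase that starts oil breakdown, had 17.9 ± 1.3 CPM per kb in ago4-2 on NaCl and 19.8 ± 0.64 CPM per kb in Col-0 on control medium. PXA1 (AT4G39850), the ABC transporter for fatty acids, had 12.8 ± 0.5 and 14.7 ± 0.024 CPM per kb in the same groups. ACX5 was last in every group, at 2.70 to 5.06 CPM per kb over the 12 libraries. Places in the middle shifted between groups. ACO1 was 15th, 16th and 19th in ago4-2, ago4-3 and Col-0 on NaCl and 23rd, 23rd and 25th on control medium, and AIM1 ranged from 18th to 28th and GLI1 from 16th to 25th. In Col-0 on control medium, 24 of the 33 neighbours in this order were apart, meaning that both libraries of the higher gene were above both of the lower. ACX3, PEX14 and ACX2 were among the neighbours that were not, and neither were PMDH2, PPDK, PNC1, PEX7 and ACO1, next to each other in the middle of the order.

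**Figure D1:**
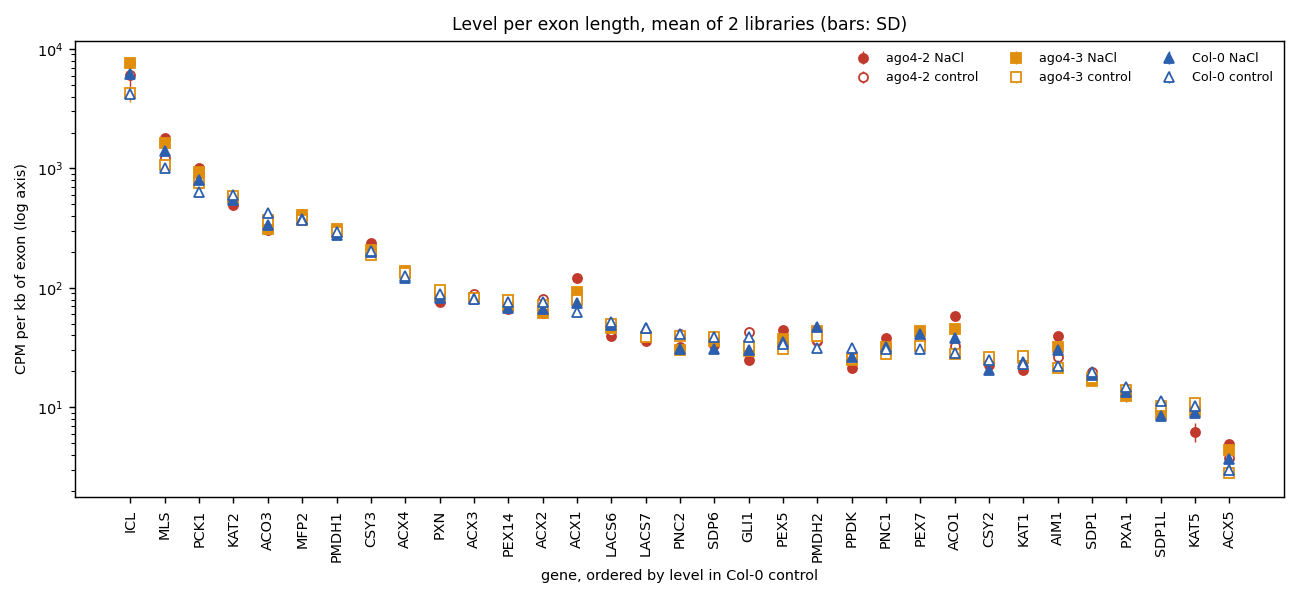
Level of 33 of the 34 genes in CPM per kb of exon (log axis), ordered by level in Col-0 on control medium. Points are means of 2 libraries and bars are SD, for ago4-2, ago4-3 and Col-0 on NaCl (filled) and control medium (open). ICL is highest in every group and ACX5 lowest.

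Together the 34 genes took 2.65% and 2.67% of all counts in ago4-2 on NaCl, 2.91% and 2.98% in ago4-3 on NaCl and 2.75% and 2.68% in Col-0 on NaCl. On control medium they took 2.43% and 2.43% in ago4-2, 1.98% and 2.15% in ago4-3 and 2.19% and 2.26% in Col-0. The NaCl libraries were above the control libraries in each genotype, and the groups did not overlap. ICL alone made up 55.7% and 56.0% of the 34-gene CPM sum in ago4-2 on NaCl and 46.4% and 44.9% in Col-0 on control medium, so this sum mostly follows ICL.

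The effect of 100 mM NaCl was compared with control medium within each genotype. It moved single steps in different directions, and no member moved by more than 0.84 on the log2 scale. In ago4-2, 12 of the 34 genes were called at an adjusted p under 0.05 by edgeR, where 35.1% of all genes tested were called. Of these, 5 were higher and 7 lower, where 17.4% and 17.8% of all genes were. In ago4-3, 8 were called, where 23.0% of all genes were. Here 7 were higher and 1 lower, beside 12.6% and 10.4% of all genes. In Col-0, 9 were called, where 18.2% of all genes were. There 5 were higher and 4 lower, beside 10.7% and 7.42% of all genes. These shares, 35.3%, 23.5% and 26.5% of the 34, are near or a little above the background. The median log2 fold change of the 34 was -0.04 in ago4-2, 0.00 in ago4-3 and -0.06 in Col-0, beside -0.02, -0.01 and 0.01 over all genes. Across the 3 genotypes 9 genes were called higher at least once, 9 were called lower at least once, 0 were called in both directions, and 16 were called in none. Shares of all genes called at least once, in none or in all 3 genotypes are not given. These combined counts, and the calls shared by all 3 genotypes below, are thus not shown to be particular to the 34. Over all genes, the NaCl and control libraries did not overlap for 66.4% in ago4-2, 61.1% in ago4-3 and 60.1% in Col-0. A lack of overlap, given below for single genes, is thus common and is no call.

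**Figure D2:**
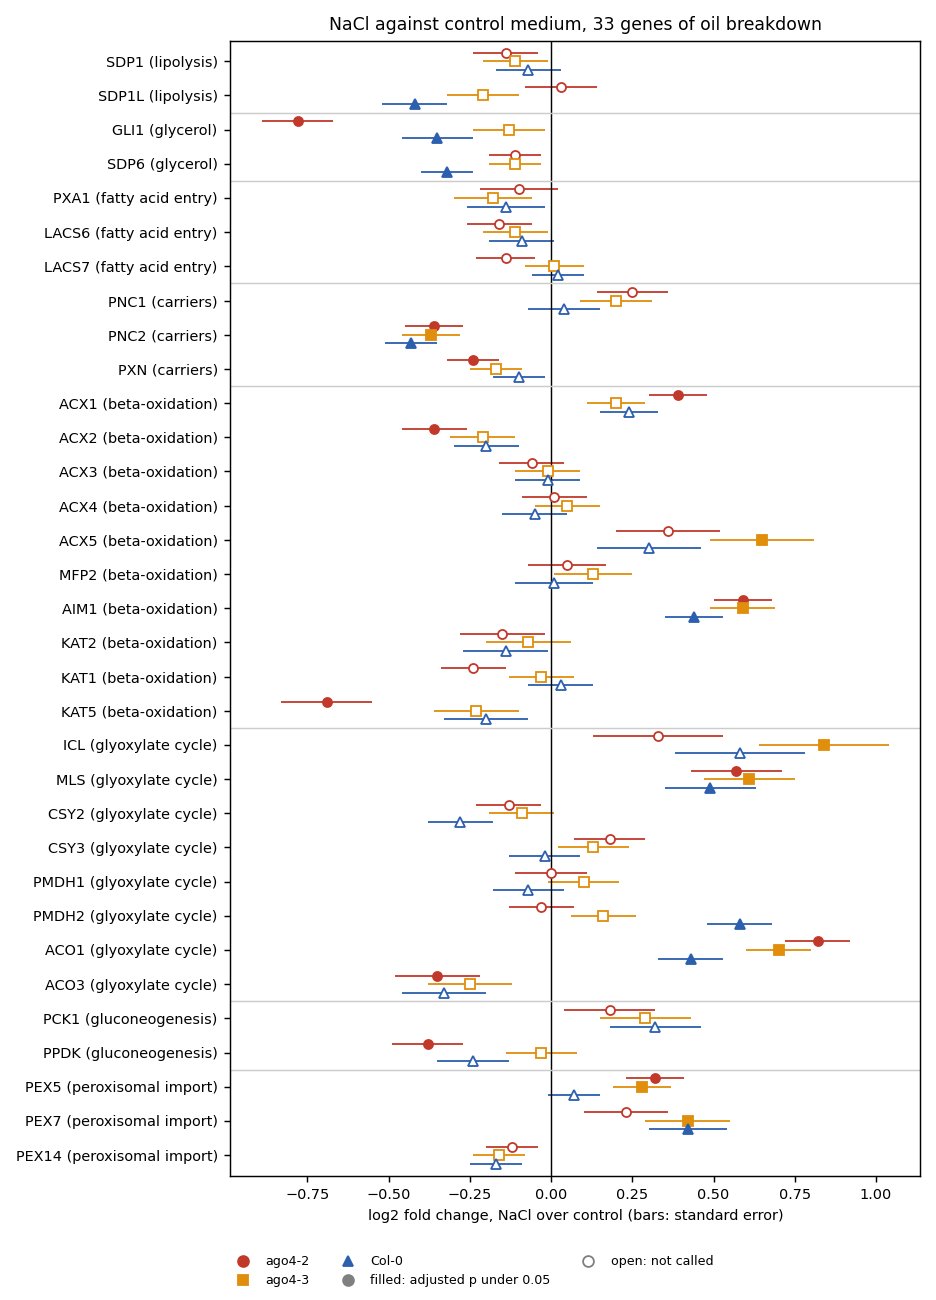
Log2 fold change of NaCl over control medium for 33 of the 34 genes in ago4-2 (circles), ago4-3 (squares) and Col-0 (triangles), grouped by step of the pathway. Bars are standard errors and filled symbols have an adjusted p under 0.05 (edgeR, 2 libraries per group). MLS, AIM1 and ACO1 are higher in all 3 genotypes and PNC2 is lower in all 3.

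The genes called the same way in all 3 genotypes were MLS, AIM1 and ACO1, higher on NaCl, and PNC2, lower on NaCl. MLS makes malate from glyoxylate and acetyl-CoA and is, with ICL, specific to the glyoxylate cycle. AIM1 (AT4G29010) is a multifunctional protein of beta-oxidation, and ACO1 (AT4G35830) is an aconitase, the enzyme that converts citrate into isocitrate. PNC2 (AT5G27520) is a carrier that brings ATP into the peroxisome. The 250 bases before the annotated transcript start of these 4 genes and of ICL are shown because the 4 were called in every genotype, 3 of them higher and PNC2 lower, and ICL is the most abundant transcript of the set. They were read from RefSeq TAIR10.1, 5′ to 3′ on the gene's strand, which is the minus strand for all 5, and lie at chr5:1034974-1035223 (MLS), chr4:14302288-14302537 (AIM1), chr4:16978162-16978411 (ACO1), chr5:9716419-9716668 (PNC2) and chr3:7656054-7656303 (ICL). Capitals mark ACGTG on either strand, the core of ABA-responsive elements, which bZIP factors bind.
MLS: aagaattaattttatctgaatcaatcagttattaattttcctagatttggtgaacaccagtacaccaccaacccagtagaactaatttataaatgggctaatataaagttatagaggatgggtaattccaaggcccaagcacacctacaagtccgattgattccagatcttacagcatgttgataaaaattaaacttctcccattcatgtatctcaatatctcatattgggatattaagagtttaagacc
AIM1: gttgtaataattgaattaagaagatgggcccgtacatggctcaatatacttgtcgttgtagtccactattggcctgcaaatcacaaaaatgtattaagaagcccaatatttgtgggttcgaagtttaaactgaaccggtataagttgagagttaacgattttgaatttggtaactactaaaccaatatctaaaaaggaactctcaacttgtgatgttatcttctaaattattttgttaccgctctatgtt
ACO1: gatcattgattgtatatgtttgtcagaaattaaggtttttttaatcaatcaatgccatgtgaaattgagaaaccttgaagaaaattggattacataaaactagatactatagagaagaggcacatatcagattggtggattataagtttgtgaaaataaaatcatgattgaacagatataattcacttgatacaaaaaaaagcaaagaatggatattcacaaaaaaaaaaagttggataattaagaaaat
PNC2: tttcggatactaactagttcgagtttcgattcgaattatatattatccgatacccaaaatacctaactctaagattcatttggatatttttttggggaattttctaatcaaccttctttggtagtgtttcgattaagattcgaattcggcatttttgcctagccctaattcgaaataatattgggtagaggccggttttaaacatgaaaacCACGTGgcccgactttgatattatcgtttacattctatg
ICL: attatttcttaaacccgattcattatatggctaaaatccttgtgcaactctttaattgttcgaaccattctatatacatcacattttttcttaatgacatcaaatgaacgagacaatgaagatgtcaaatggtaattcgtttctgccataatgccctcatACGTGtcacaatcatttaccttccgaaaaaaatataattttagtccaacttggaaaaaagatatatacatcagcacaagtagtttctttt
None of the 3 windows of genes that were higher in all genotypes held ACGTG. PNC2 held CACGTG, which is a palindrome and so counts as 2 overlapping ACGTG matches, 39 and 38 bases before the start. ICL held 1 ACGTG, 90 bases before the start. Of the 34 windows 10 held ACGTG (29.41%), beside 22.91% of the 27443 windows of all protein-coding genes, and 4 held CACGTG (11.76%, beside 6.49%). CATGCA, the core of the RY element, was in 0 of the 34 and in 8.43% of all. Among the 17024 windows of genes tested here, the shares were 23.58% for ACGTG, 7.89% for CACGTG and 7.2% for CATGCA. A match is a description of the letters and not a binding site.

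At the lipase step little moved. SDP1 had 69.0 and 62.2 CPM in ago4-2 on NaCl, against 70.0 and 74.2 CPM on control medium. It had 58.6 and 62.5 CPM in ago4-3 on NaCl, against 66.7 and 63.5 CPM, and 74.5 and 63.3 CPM in Col-0 on NaCl, against 70.9 and 74.2 CPM. The SDP1 groups overlapped in Col-0, and the log2 fold changes were -0.14, -0.11 and -0.07 in ago4-2, ago4-3 and Col-0, none of them called. SDP1L (AT3G57140), a close relative of SDP1, had 28.0 and 26.9 CPM in Col-0 on NaCl, against 35.4 and 38.1 CPM on control medium, and fell (log2 fold change -0.42 ± 0.10, SE; adjusted p = 0.0118). In ago4-2, SDP1L had 32.0 and 30.2 CPM on NaCl and 31.3 and 29.6 CPM on control medium, and in ago4-3 it had 27.5 and 29.2 CPM and 30.9 and 34.9 CPM. The Col-0 call was lost without Col-0 control replicate 2 or Col-0 NaCl replicate 2 (highest adjusted p = 0.125). Neither mutant's SDP1L change was called, and the difference of their salt response from that of Col-0 was not called either (adjusted p = 0.107 for ago4-2 and 0.99 for ago4-3).

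Both genes of glycerol use had negative log2 fold changes with salt in each genotype, of differing size. GLI1 (AT1G80460) is the glycerol kinase. It had 52.8 and 53.7 CPM in ago4-2 on NaCl, against 97.9 and 85.5 CPM on control medium, and 59.7 and 69.2 CPM in Col-0 on NaCl, against 77.1 and 87.6 CPM. In ago4-3 it had 57.3 and 69.1 CPM on NaCl and 70.8 and 67.6 CPM on control medium, which overlapped. GLI1 was 1.72-fold lower in ago4-2 (adjusted p = 0.000114) and 1.28-fold lower in Col-0 (adjusted p = 0.0421). The ago4-2 call held whichever of its 4 libraries was left out, while the Col-0 call was lost without any one of Col-0 control replicate 1, Col-0 control replicate 2 and Col-0 NaCl replicate 1, with a highest adjusted p of 0.315. SDP6 (AT3G10370), the glycerol-3-phosphate dehydrogenase of mitochondria, fell in Col-0 (log2 fold change -0.32 ± 0.08, adjusted p = 0.0132), a call lost without Col-0 control replicate 2 (adjusted p = 0.164). Its log2 fold changes in ago4-2 and ago4-3 were -0.11 and -0.11, not called.

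The 3 genes of fatty acid entry were not called in any genotype. PXA1 had 70.5 and 66.7 CPM in ago4-2 on NaCl and 68.9 and 78.3 CPM on control medium. It had 62.3 and 70.0 CPM on NaCl and 79.3 and 70.6 CPM on control medium in ago4-3, and 80.1 and 63.1 CPM on NaCl and 78.7 and 78.5 CPM on control medium in Col-0. The PXA1 libraries of the 2 media overlapped in ago4-2 and Col-0, and in ago4-3 the NaCl libraries were both below the control libraries with a log2 fold change of -0.18 ± 0.12. The acyl-CoA synthetases LACS6 (AT3G05970) and LACS7 (AT5G27600), which activate fatty acids inside the peroxisome, had log2 fold changes between -0.16 and 0.02.

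Among the carriers, PNC2 had 45.4 and 47.4 CPM in ago4-2 on NaCl, against 60.1 and 58.8 CPM on control medium. It had 43.3 and 44.9 CPM in ago4-3 on NaCl, against 55.8 and 58.6 CPM, and 43.5 and 45.9 CPM in Col-0 on NaCl, against 60.5 and 60.0 CPM. In each genotype both NaCl libraries were below both control libraries, and the fold change was much alike, -0.36 ± 0.09 in ago4-2 (adjusted p = 0.00507), -0.37 ± 0.09 in ago4-3 (0.00598) and -0.43 ± 0.08 in Col-0 (0.00263) on the log2 scale. The ago4-3 call was lost without ago4-3 NaCl replicate 1 (adjusted p = 0.0525). Its relative PNC1 (AT3G05290), which carries the same nucleotides, had log2 fold changes of 0.25, 0.20 and 0.04, not called, so that PNC2 made up 45.6% to 45.9% of the pair per kb of exon in ago4-2 on NaCl, against 53.5% to 59.0% on control medium. In Col-0 its share was 48.2% to 49.8% on NaCl and 57.0% to 57.3% on control medium. PXN (AT2G39970), the NAD carrier of the peroxisome, fell in ago4-2 (log2 fold change -0.24 ± 0.08, adjusted p = 0.037), a call lost without any one of the 4 ago4-2 libraries (highest adjusted p = 0.175).

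In beta-oxidation the acyl-CoA oxidases, which take the opening step on chains of different lengths, did not move as a group. ACX1 (AT4G16760) was at 323 and 305 CPM in ago4-2 on NaCl, against 241 and 237 CPM on control medium, and rose (0.39 ± 0.09, adjusted p = 0.00405). It was at 244 and 234 CPM in ago4-3 on NaCl, against 205 and 211 CPM, and at 187 and 201 CPM in Col-0 on NaCl, against 159 and 170.4 CPM. The ACX1 groups did not overlap in any genotype, but the changes in ago4-3 (0.20) and Col-0 (0.24) were not called. ACX2 (AT5G65110), for long chains, fell in ago4-2 (-0.36 ± 0.10, adjusted p = 0.0125), and this call was lost without ago4-2 NaCl replicate 2 (adjusted p = 0.146). ACX3 (AT1G06290) and ACX4 (AT3G51840), for medium and short chains, had log2 fold changes between -0.06 and 0.05.

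ACX5 (AT2G35690), the close relative of ACX1 that acts with it in jasmonate synthesis, was the lowest of the 34. It had 12.2 and 11.5 CPM in ago4-2 on NaCl, against 7.82 and 10.4 CPM on control medium. It had 10.6 and 10.7 CPM in ago4-3 on NaCl, against 7.05 and 6.51 CPM, and 8.92 and 8.88 CPM in Col-0 on NaCl, against 6.85 and 7.70 CPM. Both NaCl libraries were above both control libraries in every genotype, and ACX5 was called in ago4-3 (0.65 ± 0.16, adjusted p = 0.00913), where the call was lost without ago4-3 control replicate 2 (adjusted p = 0.0585). No source used here says how reads common to close relatives such as ACX1 and ACX5 were counted, and single values of such pairs are uncertain.

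The multifunctional proteins, which carry out the hydration and dehydrogenation steps, parted. AIM1 had 105 and 111 CPM in ago4-2 on NaCl, against 76.5 and 67.5 CPM on control medium. It had 82.7 and 92.1 CPM in ago4-3 on NaCl, against 59.0 and 57.4 CPM, and 81.6 and 82.4 CPM in Col-0 on NaCl, against 57.7 and 63.5 CPM. NaCl libraries were above control libraries throughout, and AIM1 was 1.5-fold higher in ago4-2 (adjusted p = 0.00026), 1.5-fold higher in ago4-3 (0.000441) and 1.36-fold higher in Col-0 (0.00453, lost without Col-0 control replicate 1 at 0.0816). MFP2 (AT3G06860), the more abundant protein of this kind, had 1177 and 1099 CPM in ago4-2 on NaCl and 1168 and 1034 CPM on control medium. It had 1055 and 1155 CPM on NaCl and 999 and 1024 CPM on control medium in ago4-3, and 1023 and 1013 CPM and 987 and 1033 CPM in Col-0. The MFP2 groups overlapped in ago4-2 and Col-0, and its log2 fold changes were 0.05, 0.13 and 0.01, with no call.

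KAT2, which cleaves acetyl-CoA from the chain, was at 1074 and 1052 CPM in ago4-2 on NaCl and 1247 and 1113 CPM on control medium. It was at 1149 and 1259.8 CPM on NaCl and 1225 and 1300.2 CPM on control medium in ago4-3, and at 1135 and 1177 CPM on NaCl and 1264 and 1288 CPM on control medium in Col-0. Its log2 fold changes were -0.15, -0.07 and -0.14, with adjusted p from 0.385 to 0.744. KAT5 (AT5G48880) is a minor thiolase. It had 13.5 and 17.4 CPM in ago4-2 on NaCl, against 25.9 and 24.3 CPM on control medium, and was 1.61-fold lower (adjusted p = 0.00124), a call that held whichever ago4-2 library was left out. KAT5 had 24.8 and 21.2 CPM on NaCl and 26.1 and 27.9 CPM on control medium in ago4-3, and 21.4 and 23.1 CPM and 25.9 and 25.0 CPM in Col-0. Its NaCl libraries were below the control libraries in these genotypes too, at log2 fold changes of -0.23 and -0.20 that were not called, and the difference between the ago4-2 and Col-0 responses was not called (adjusted p = 0.168).

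In the glyoxylate cycle ICL, MLS, ACO1 and PMDH2 were each called higher with salt in at least 1 genotype. ICL, which splits isocitrate into glyoxylate and succinate, had 16816 and 16701 CPM in ago4-2 on NaCl, against 15779.6 and 10955 CPM on control medium. It had 16600.01 and 17264 CPM in ago4-3 on NaCl, against 8387 and 10466 CPM, and 12981 and 14619 CPM in Col-0 on NaCl, against 9289.7 and 9129 CPM. Every NaCl library was above every control library of its genotype, while the media did not overlap for 60.1% to 66.4% of all genes. ICL was 1.8-fold higher in ago4-3 (0.84 ± 0.20, adjusted p = 0.0078), while the changes of 0.33 ± 0.20 in ago4-2 (adjusted p = 0.234) and 0.58 ± 0.20 in Col-0 (0.0601) were not called by edgeR. The ago4-3 call was lost without ago4-3 control replicate 1 or either ago4-3 NaCl library (highest adjusted p = 0.08). DESeq2 called all 3 (adjusted p = 0.0453 in ago4-2, 3.54e-08 in ago4-3 and 0.000485 in Col-0). The ago4-2 control libraries differed from each other for ICL more than those of any other group. The estimate in ago4-2 depended on which control library was kept. Without ago4-2 control replicate 2 it was 0.09, and without ago4-2 control replicate 1 it was 0.61. In the fit without ago4-2 control replicate 1, the estimates were 0.84 in ago4-3 and 0.59 in Col-0. These are near the 0.84 and 0.58 of the full fit, as that library is in neither comparison. Without TMM scaling the ago4-2 control libraries had 13446 and 11919 CPM of ICL, against 14783 and 14945 CPM in ago4-2 on NaCl, which is a smaller gap between the 2 control libraries than on the scaled values.

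MLS had 3725 and 3717 CPM in ago4-2 on NaCl, against 2739 and 2258 CPM on control medium. It had 3403 and 3324 CPM in ago4-3 on NaCl, against 2159 and 2252 CPM, and 2870.3 and 2933 CPM in Col-0 on NaCl, against 2069 and 2071 CPM. The groups did not overlap in any genotype, and MLS was 1.49-fold higher in ago4-2 (adjusted p = 0.00638), 1.52-fold higher in ago4-3 (0.00695) and 1.4-fold higher in Col-0 (0.0289). In ago4-2 the call was lost when the 2 ago4-2 groups were fitted alone (adjusted p = 0.212). In Col-0 the call was lost without any one of the 4 Col-0 libraries (highest adjusted p = 0.193), and in ago4-3 without ago4-3 control replicate 1 or ago4-3 NaCl replicate 1 (highest 0.0605). Its salt response did not differ detectably between genotypes (difference from Col-0 0.09 ± 0.20 in ago4-2 and 0.12 ± 0.20 in ago4-3).

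Of the aconitases, ACO1 had 207 and 200.4 CPM in ago4-2 on NaCl, against 122 and 108 CPM on control medium. It had 147 and 169.8 CPM in ago4-3 on NaCl, against 99.3 and 96.2 CPM, and 135 and 131 CPM in Col-0 on NaCl, against 94.8 and 103 CPM. Again no NaCl library overlapped the control libraries. ACO1 was 1.77-fold higher in ago4-2 (adjusted p = 1.61e-05) and 1.62-fold higher in ago4-3 (0.000131), whichever library of either genotype was left out, and 1.35-fold higher in Col-0 (0.00643, lost without Col-0 control replicate 1 at 0.0923). ACO3 (AT2G05710), more abundant per length than ACO1, went the other way, with log2 fold changes of -0.35, -0.25 and -0.33, of which the one in ago4-2 was called (adjusted p = 0.041, lost without ago4-2 control replicate 1, ago4-2 NaCl replicate 1 or ago4-2 NaCl replicate 2, highest 0.18, and with the ago4-2 groups fitted alone at 0.279). DESeq2 called ACO3 in ago4-3 (adjusted p = 0.0199) and Col-0 (0.00109) as well. ACO1 therefore made up 16.0% to 16.1% of the ACO1 and ACO3 transcripts per kb of exon in ago4-2 on NaCl, against 7.56% to 8.05% on control medium. In Col-0 its share was 10.05% to 10.16% on NaCl and 6.19% to 6.25% on control medium.

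**Figure D3:**
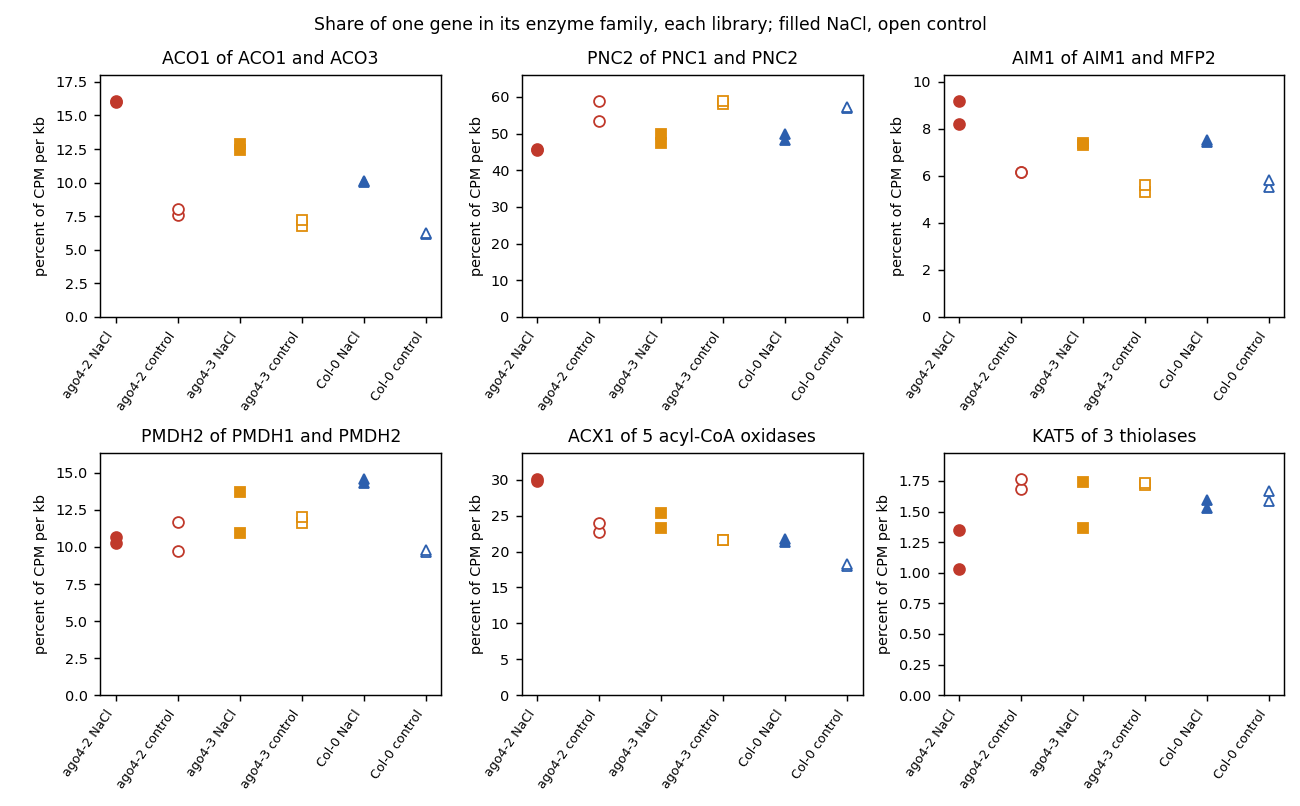
Share of a single gene in its enzyme family, as a percent of the family's CPM per kb of exon, in each of the 2 libraries of the 6 groups (filled NaCl, open control medium). The share of ACO1 is higher and that of PNC2 lower on NaCl in all 3 genotypes, while that of PMDH2 is apart between the media in Col-0 only.

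PMDH2 (AT5G09660) is a peroxisomal malate dehydrogenase that reoxidises NADH. It had 68.0 and 69.4 CPM in ago4-2 on NaCl, against 66.1 and 74.4 CPM on control medium. It had 90.8 and 78.2 CPM in ago4-3 on NaCl, against 72.7 and 78.5 CPM, and 88.5 and 93.8 CPM in Col-0 on NaCl, against 59.3 and 62.3 CPM. The media overlapped in both mutants and were apart in Col-0, where PMDH2 was 1.5-fold higher (0.58 ± 0.10, adjusted p = 0.000745), whichever Col-0 library was left out. The salt response of ago4-2 differed from that of Col-0 by -0.62 ± 0.14 on the log2 scale (adjusted p = 0.0203). PMDH2 was the 1 gene of the 34 called in this test, where 4.43% of all genes were called. The call was lost without any one of 6 of the 8 libraries involved (all but Col-0 NaCl replicate 1 and ago4-2 control replicate 1), with a highest adjusted p of 0.11. For ago4-3 the difference was -0.42 ± 0.14 (adjusted p = 0.58), and 0 of the 34 were called, with 0.0225% of all genes called and 2 of the 34 at an unadjusted p under 0.05. DESeq2 also called 0 of the 34 for ago4-3. Other members of the cycle, CSY2 (AT3G58750) and CSY3 (AT2G42790), which are peroxisomal citrate synthases, and PMDH1 (AT2G22780), had log2 fold changes between -0.28 and 0.18 with salt, none of them called.

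**Figure D4:**
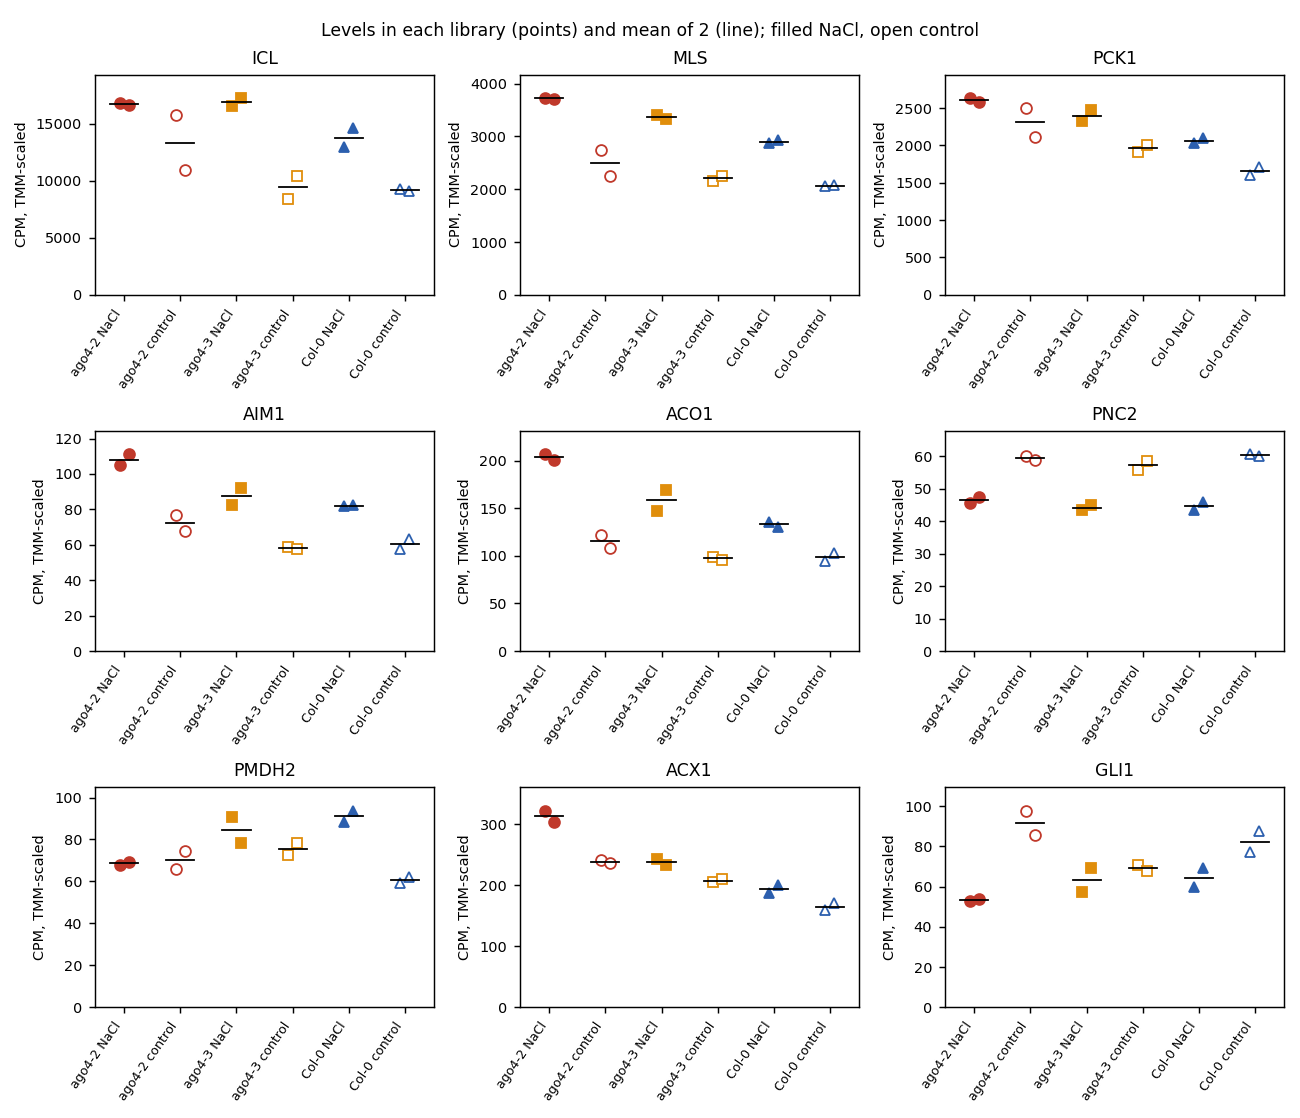
CPM (TMM-scaled, linear axes from 0) of 9 of the genes in each library, with a line at the mean of 2. In each panel ago4-2, ago4-3 and Col-0 are given on NaCl (filled) and then on control medium (open). The ago4-2 control libraries lie apart for ICL, and of the 3 genotypes PMDH2 is called higher on NaCl in Col-0 only.

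In gluconeogenesis PCK1 had 2633 and 2582 CPM in ago4-2 on NaCl, against 2501 and 2118 CPM on control medium. It had 2323 and 2472 CPM in ago4-3 on NaCl, against 1915 and 2008 CPM, and 2026 and 2096 CPM in Col-0 on NaCl, against 1602 and 1709 CPM. NaCl libraries were above control libraries in each genotype, but the log2 fold changes of 0.18 ± 0.14, 0.29 ± 0.14 and 0.32 ± 0.14 were not called (edgeR, adjusted p = 0.358, 0.151 and 0.137). DESeq2 called PCK1 in ago4-3 (adjusted p = 0.0134) and Col-0 (0.00948). PPDK (AT4G15530), pyruvate orthophosphate dikinase, which also makes phosphoenolpyruvate, had 81.5 and 75.9 CPM in ago4-2 on NaCl, against 93.7 and 110.3 CPM on control medium, and fell (-0.38 ± 0.11, adjusted p = 0.0166). That call was lost without ago4-2 control replicate 2 or ago4-2 NaCl replicate 2 (highest adjusted p = 0.148). PPDK had 85.9 and 98.4 CPM on NaCl and 101 and 87.0 CPM on control medium in ago4-3, and 101 and 94.0 CPM and 109 and 121 CPM in Col-0, with log2 fold changes of -0.03 and -0.24 that were not called.

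The receptors that carry these enzymes into the peroxisome moved a little. PEX5 (AT5G56290) and PEX7 (AT1G29260) bind the C-terminal and the N-terminal targeting signal of peroxisomal proteins. PEX5 rose in ago4-2 (0.32 ± 0.09, adjusted p = 0.0102) and ago4-3 (0.28 ± 0.09, adjusted p = 0.0304), and had 0.07 in Col-0, not called. PEX7 rose in ago4-3 (0.42 ± 0.13, adjusted p = 0.0279) and Col-0 (0.42 ± 0.12, adjusted p = 0.031), and had 0.23 in ago4-2, not called. Each of these 4 calls was lost when single libraries were left out, with highest adjusted p of 0.0709, 0.175, 0.138 and 0.228. PEX14 (AT5G62810), the docking protein of the membrane, had log2 fold changes between -0.17 and -0.12, not called.

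The mutants were next compared with Col-0 in the same medium. These comparisons share the Col-0 libraries and, for each mutant, the same libraries as its salt comparison. On NaCl, 10 of the 34 genes differed between ago4-2 and Col-0 (5 higher and 5 lower), where 29.3% of all genes were called (14.9% higher and 14.4% lower). The median log2 difference of the 34 was 0.09, beside -0.02 for all genes. The libraries of ago4-2 and Col-0 did not overlap for 67.4% of all genes on NaCl and 53.7% on control medium. Those of ago4-3 and Col-0 did not overlap for 41.5% on NaCl and 49.8% on control medium. ago4-3 against Col-0 on NaCl had 0 of the 34 called by edgeR, where 1.19% of all genes were called. Of the 34, 6 had an unadjusted p under 0.05, the lowest adjusted p was 0.191, and DESeq2 called 1 (ACX1, adjusted p = 0.0298).

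Among the genes higher in ago4-2 on NaCl were ACX1, ACO1, AIM1 and PEX5. ACX1 (323 and 305 CPM in ago4-2, against 187 and 201 CPM in Col-0) was 1.62-fold higher (adjusted p = 6.82e-05). ACO1 (207 and 200.4 CPM, against 135 and 131 CPM in Col-0) was 1.53-fold higher (0.000295). Both calls held whichever of the 4 libraries was left out. AIM1 (0.40 on the log2 scale) and PEX5 (0.32) were called with all libraries, and AIM1 was lost without ago4-2 NaCl replicate 2 (adjusted p = 0.062) while PEX5 was lost without any one of Col-0 NaCl replicate 2 and the ago4-2 NaCl libraries (highest 0.0821).

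Lower in ago4-2 on NaCl were KAT5, PMDH2, LACS7, PPDK and LACS6. KAT5 had 13.5 and 17.4 CPM in ago4-2, against 21.4 and 23.1 CPM in Col-0 (-0.52 ± 0.13, adjusted p = 0.00998), a call lost without Col-0 NaCl replicate 2 or ago4-2 NaCl replicate 1 (highest 0.13). PMDH2 (68.0 and 69.4 CPM in ago4-2, against 88.5 and 93.8 CPM in Col-0) was 1.33-fold lower (0.00594) whichever library was left out. LACS7 had 89.9 and 86.7 CPM in ago4-2 on NaCl, against 117 and 112 CPM in Col-0, and was 1.3-fold lower (0.00447, lost without ago4-2 NaCl replicate 2 at 0.051). In ago4-3 LACS7 was at 93.3 and 97.0 CPM on NaCl and 99.9 and 89.3 CPM on control medium, and on control medium it was at 96.4 and 98.4 CPM in ago4-2 and 111 and 115 CPM in Col-0. Col-0 was thus above each mutant in both media, with log2 differences of -0.21 for ago4-2 and -0.25 for ago4-3 on control medium and -0.27 for ago4-3 on NaCl that were not called. PPDK (-0.31) was lost without any one of the 4 libraries and LACS6 (-0.30) without 3 of them (highest adjusted p 0.238 and 0.2).

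**Figure D5:**
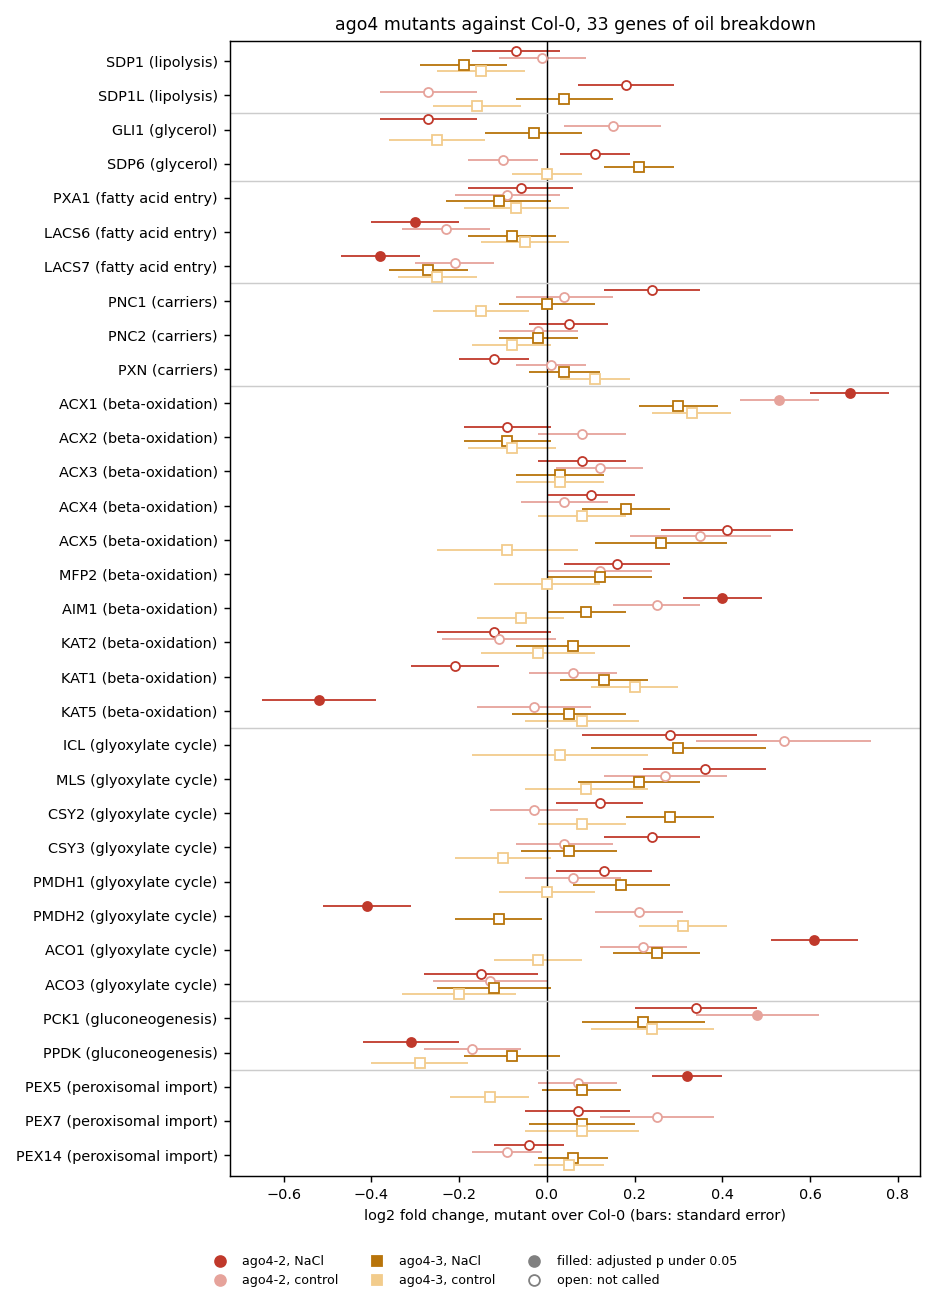
Log2 fold change of ago4-2 (circles) and ago4-3 (squares) over Col-0 on NaCl (dark) and on control medium (light) for 33 of the 34 genes by step. Bars are standard errors and filled symbols have an adjusted p under 0.05 (edgeR, 2 libraries per group). ACX1 is called for ago4-2 in both media, and 0 genes are called for ago4-3.

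On control medium 2 of the 34 genes differed between ago4-2 and Col-0, both higher, where 8.44% of all genes were called, and 5.22% of all genes were higher. ACX1 had 241 and 237 CPM in ago4-2, against 159 and 170.4 CPM in Col-0 (0.53 ± 0.09, adjusted p = 0.00193, lost without Col-0 control replicate 1 at 0.0536). PCK1 had 2501 and 2118 CPM in ago4-2, against 1602 and 1709 CPM in Col-0 (0.48 ± 0.14, adjusted p = 0.0465). The PCK1 call was lost without Col-0 control replicate 1, Col-0 control replicate 2 or ago4-2 control replicate 1 (highest 0.303). Between ago4-3 and Col-0 on control medium 0 of the 34 were called by edgeR, where 1.66% of all genes were called. There 5 had an unadjusted p under 0.05, the lowest adjusted p was 0.0986, and DESeq2 called 1 (ACX1, adjusted p = 0.0106). The largest difference was that of ACX1, at 205 and 211 CPM in ago4-3, against 159 and 170.4 CPM in Col-0 (0.33 ± 0.09). Without ago4-2 control replicate 1, a library outside this comparison, the log2 difference of ACX1 for ago4-3 on control medium was 0.34.

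Set against each other on NaCl, ago4-3 and ago4-2 differed in 6 of the 34 genes, where 20.9% of all genes were called (9.89% higher and 11.0% lower). KAT5 (0.57), KAT1 (0.34) and PMDH2 (0.30) were higher in ago4-3, and ACX1 (-0.39), ACO1 (-0.36) and AIM1 (-0.30) were lower, all as log2 fold changes. KAT1 (AT1G04710), a further thiolase, had 42.9 and 44.4 CPM in ago4-3, against 33.2 and 35.8 CPM in ago4-2 (adjusted p = 0.0322), and in Col-0 on NaCl it had 41.0 and 38.7 CPM. On control medium KAT1 had 44.6 and 44.6 CPM in ago4-3, 43.8 and 37.8 CPM in ago4-2 and 41.0 and 36.8 CPM in Col-0. Each of the 6 calls was lost without 1 or more of the 4 libraries (highest adjusted p 0.0745 to 0.317), and without ago4-2 NaCl replicate 1 the count was 0. On control medium 1 gene, GLI1, differed between ago4-3 and ago4-2 (-0.40 ± 0.11, adjusted p = 0.0379), where 9.00% of all genes were called, and it was lost without ago4-2 control replicate 1 or either ago4-3 control library (highest 0.199).

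Of the 10 members called between ago4-2 and Col-0 on NaCl, 5 are on chromosome 4, which holds 7 of the 34 and where 34.8% of all genes tested were called. ACX1, AIM1, ACO1 and PPDK are among these 5, while PXA1 and PCK1, on the same chromosome, were not called. Chromosome 5 held 4 of the called members (of 9, with 26.9% of all its genes called) and chromosome 3 held 1 (of 8, 30.7%). Chromosome 1 held 0 (of 4, 28.1%) and chromosome 2 held 0 (of 6, 29.1%). In ago4-2, 15 genes of chromosome 4 differed from Col-0 by more than 5 on the log2 scale in both media, and they lie between positions 858636 and 15566971 (TAIR10.1). PPDK (start 8864615), ACX1 (9424534) and AIM1 (14297044) lie within that stretch, at 1322.4, 1098.9 and 273.1 kb from the nearest of the 15. ACO1 (16972569) lies beyond the stretch, at 1407.3 kb from the nearest. Chromosome 2 also held 15 such genes, between 1525029 and 9049404, and ACO3 (2141329), which lies within that stretch, was not called. Chromosome 3 held 9 of them, chromosome 1 held 2, and chromosome 5, with 4 called members, held 1. The difference between chromosomes was not tested.

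Genes of the steps around the 34 were taken from lists made for this purpose. Of 10 auxiliary beta-oxidation genes, 4 were higher and 1 lower with salt in ago4-2, 5 higher and 0 lower in ago4-3, and 3 higher and 0 lower in Col-0, with median log2 fold changes of 0.27, 0.29 and 0.21, beside -0.02, -0.01 and 0.01 for all genes. Over all genes tested, 17.4% were higher and 17.8% lower in ago4-2, 12.6% and 10.4% in ago4-3, and 10.7% and 7.42% in Col-0. ACN1, the acetyl-CoA synthetase that passes acetate into the glyoxylate cycle, had 37.4 and 31.4 CPM in ago4-2 on NaCl, against 15.6 and 13.2 CPM on control medium (1.26 ± 0.14, adjusted p = 1.12e-05). It had 25.8 and 25.2 CPM in ago4-3 on NaCl, against 11.7 and 9.81 CPM (1.24 ± 0.15, 2.68e-05), and 17.9 and 19.8 CPM in Col-0 on NaCl, against 9.58 and 11.0 CPM (0.88 ± 0.14, 0.00062). ACN1 thus moved further with salt than any of the 34 in each genotype. IBR3, an acyl-CoA dehydrogenase-like protein needed for the response to indole-3-butyric acid, rose in ago4-2 (0.58), ago4-3 (0.50) and Col-0 (0.49). On NaCl, 3 of the 10 were higher and 0 lower in ago4-2 than in Col-0 (beside 14.9% and 14.4% of all genes), among them ACN1 (0.87, adjusted p = 0.000327) and IBR10 (0.49, 0.0118), and ACN1 was lower in ago4-3 than in ago4-2 (-0.43, 0.0373).

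Of 21 peroxins and peroxisomal proteases, 7 were higher and 3 lower with salt in ago4-2, 5 higher and 1 lower in ago4-3, and 2 higher and 1 lower in Col-0. As shares of the 21 these are 33.3% and 14.3% in ago4-2, 23.8% and 4.76% in ago4-3, and 9.52% and 4.76% in Col-0, beside 17.4% and 17.8%, 12.6% and 10.4%, and 10.7% and 7.42% of all genes. PEX19-1 and PEX19-2 bring membrane proteins to the peroxisome. PEX19-1 rose in ago4-2 (0.93 ± 0.14, adjusted p = 0.000148) and ago4-3 (0.44 ± 0.14, 0.0364), and PEX19-2 rose in ago4-2 (0.86 ± 0.14, 0.000228), ago4-3 (0.87 ± 0.14, 0.000367) and Col-0 (0.52 ± 0.14, 0.0158). PEX11E, of a family that acts in peroxisome division, fell in ago4-2 (-0.61 ± 0.10, 0.000222), ago4-3 (-0.42 ± 0.10, 0.00617) and Col-0 (-0.42 ± 0.10, 0.00679). The protease LON2 rose in ago4-2 (0.70 ± 0.13, 0.000859), ago4-3 (0.71 ± 0.13, 0.00159) and Col-0 (0.47 ± 0.13, 0.0222). Against Col-0 on NaCl, ago4-2 had 4 of the 21 higher and 4 lower (beside 14.9% and 14.4% of all genes), PEX13 (0.74, 0.000279) and PEX19-1 (0.86, 0.000354) among those higher. ago4-3 had 0 called against Col-0 in either medium (beside 1.19% of all genes on NaCl and 1.66% on control medium). Against ago4-2 on NaCl, ago4-3 had 2 of the 21 higher and 4 lower, beside 9.89% and 11.0% of all genes. On control medium it had 0 higher and 3 lower, beside 9.00% of all genes called in either direction. LON2 was lower in both media (-0.57, 0.00666 on NaCl and -0.57, 0.015 on control medium).

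A list of the carbon path to sucrose, from succinate on and with the regulatory protein of PPDK, had 23 genes measured. With salt, 5 of them were higher and 7 lower in ago4-2, 4 higher and 2 lower in ago4-3, and 1 higher and 3 lower in Col-0. As shares of the 23 these are 21.7% and 30.4% in ago4-2, 17.4% and 8.70% in ago4-3, and 4.35% and 13.0% in Col-0, beside 17.4% and 17.8%, 12.6% and 10.4%, and 10.7% and 7.42% of all genes. GAPC1, a cytosolic glyceraldehyde-3-phosphate dehydrogenase, had 912 and 863 CPM in ago4-2 on NaCl, against 1585 and 1441 CPM on control medium, and fell in ago4-2 (-0.77, adjusted p = 0.000447), ago4-3 (-0.82, 0.00043) and Col-0 (-0.70, 0.00192). The sucrose-phosphate synthase SPS1F rose in ago4-2 (0.55, 0.00114). Cytosolic fructose-1,6-bisphosphatase, cFBP, had 133 and 132 CPM in ago4-2 on NaCl, against 165 and 155 CPM on control medium. It had 220.5 and 207 CPM in ago4-3 on NaCl, against 128 and 130.2 CPM, and 197 and 219 CPM in Col-0 on NaCl, against 153 and 157 CPM. It fell in ago4-2 (-0.28 ± 0.09, 0.0283) and rose in ago4-3 (0.73 ± 0.09, 4.44e-05) and Col-0 (0.43 ± 0.09, 0.00405), and its salt response in ago4-2 differed from that of Col-0 (-0.70 ± 0.13, 0.00587), like that of PMDH2. Against Col-0 on NaCl, ago4-2 had 5 of the 23 higher and 2 lower, beside 14.9% and 14.4% of all genes. Of those higher, UGP2 had the smallest adjusted p (0.95, 3.5e-05), and cFBP was among those lower (-0.65, 9.43e-05). On control medium RP1, the regulatory protein of PPDK, was higher in ago4-2 (1.04, 0.000108) and in ago4-3 (0.66, 0.015) than in Col-0, and on NaCl it was higher in ago4-2 (0.70, 0.000942).

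A list for the removal of peroxide, a product of the acyl-CoA oxidases, had 6 genes. Among them were the monodehydroascorbate reductases MDAR1 and MDAR4, which recycle ascorbate and do not act on peroxide themselves. Of the 6, 2 were higher and 3 lower with salt in ago4-2, 3 higher and 0 lower in ago4-3, and 1 higher and 0 lower in Col-0. Over all genes the shares were 17.4% and 17.8% in ago4-2, 12.6% and 10.4% in ago4-3, and 10.7% and 7.42% in Col-0. The catalase CAT3 had 225 and 216 CPM in ago4-2 on NaCl, against 101 and 90.6 CPM on control medium, and rose in ago4-2 (1.20 ± 0.13, adjusted p = 7.41e-06), ago4-3 (0.66 ± 0.13, 0.00185) and Col-0 (0.57 ± 0.13, 0.00646). The ascorbate peroxidase APX3 fell in ago4-2 (-0.60 ± 0.10, 0.000298) and CAT1 rose in ago4-2 (0.51 ± 0.09, 0.000524) and ago4-3 (0.42 ± 0.09, 0.00358). On control medium CAT3 was lower in ago4-2 than in Col-0 (-0.79 ± 0.13, 0.00133). On NaCl, MDAR4, a monodehydroascorbate reductase of the peroxisome, was lower in ago4-2 than in Col-0 (-0.45 ± 0.10, 0.00354), as was APX3 (-0.37 ± 0.10, 0.0106).

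In the authors' deposited table, members with a false discovery rate under 0.05 numbered 3 higher and 2 lower for salt in ago4-2, 5 higher and 0 lower for salt in ago4-3, and 6 higher and 2 lower for salt in Col-0. The authors' deposited table for ago4-2 against Col-0 on NaCl gave 6 higher and 3 lower, and the one for ago4-3 against ago4-2 on NaCl gave 2 higher and 2 lower. In the authors' deposited tables of the remaining 4 comparisons between genotypes 0 members were called. Shares of all genes under this rate in the authors' tables are not given, so these member counts have no background beside them.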

How the data were processed

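Per the file headers, the authors deposited 9 tables, each comparing 2 groups, with whole-number counts per gene for 4 libraries and the authors' own log2 fold change, p-value and false discovery rate. The deposited counts were taken as raw. The deposited log2 and p-value columns are quoted in the last paragraph of results alone. A further 36 library columns, which are not whole-number counts, were not used. The submitters' processing notes name build TAIR10 and the tools DESeq, edgeR, Picard and SAMtools, without roles. Aligner, counter and strand setting are not given in the sources used here. Among counts between 1 and 20, even numbers made up 72.35% to 87.65% per library, as when both mates of a pair are counted.

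Each library stood in 3 tables, with 0 disagreeing values. Dropping 147 identifiers that carry a transcript suffix and 791 of 18542 genes absent from a library left 17751 (filterByExpr removed 0). Counts were TMM-scaled and fitted with edgeR 4.0.16 (glmQLFit, R 4.3.3) over all 12 libraries with 1 coefficient per group. The two-sided p-values were adjusted (Benjamini-Hochberg) over all genes of each of 11 contrasts, and calls were made at an adjusted p under 0.05. The code was tested on simulated data. Alternatives were RLE scaling, DESeq2 1.42.0, at least 10 CPM in at least 2 libraries, no filter on missing genes, only the groups compared, the replicate number as a block, and leaving out each library.

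The members, lists and markers were chosen with earlier results of these data known. Values in every library are given for ICL, MLS, PCK1, SDP1, PXA1, KAT2 and MFP2 and for up to 3 called members per direction and contrast with the largest fold change and no overlap between groups. Up to 2 genes per list and contrast with the smallest adjusted p are named. Positions, exon lengths and promoter windows of 250 bases are from RefSeq TAIR10.1. Of the members, 1 is counted in the totals and is not reported here by name. Protein targeting signals were not analysed here.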

Additional observations from a re-analysis of the deposited data

Results flagged for a closer look

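The salt response of PMDH2, the peroxisomal malate dehydrogenase, differed between genotypes in a test of the difference itself. The response of ago4-2 minus that of Col-0 was -0.62 ± 0.14 (SE, log2; edgeR, adjusted p = 0.0203), with a salt effect of -0.03 in ago4-2 and 0.58 in Col-0. Both ago4-2 NaCl libraries were below both Col-0 NaCl libraries, and both ago4-2 control libraries were above both Col-0 control libraries. The call was lost without any one of 6 of the 8 libraries involved.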

How the results depend on the processing

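Of the 34 genes in 11 contrasts, 0 results changed direction after being called. Member counts from DESeq2, from the other settings and with a library left out, here and above, have no share of all genes beside them. The shares of all genes given above belong to the edgeR fit over all libraries. RLE scaling, the stricter filter and no filter on missing genes kept every count of called members within 1.5 times the one reported. DESeq2 called 4 members for ago4-2 against Col-0 on control medium, 1 for ago4-3 against Col-0 on control medium, 1 for ago4-3 against Col-0 on NaCl and 2 for ago4-3 against ago4-2 on control medium. With only the groups compared, the counts were 1 for ago4-2 against Col-0 on control medium, 1 for ago4-3 against Col-0 on control medium and 0 for ago4-3 against ago4-2 on control medium. In those fits the salt calls of MLS, ACO3 and PXN in ago4-2 (adjusted p = 0.212, 0.279 and 0.113) and of PEX5 in ago4-3 (0.066) were lost, as were PCK1 for ago4-2 against Col-0 (0.24) and GLI1 for ago4-3 against ago4-2 (0.117) on control medium. With RLE scaling ACO3 in ago4-2 (0.0505) and PPDK for ago4-2 against Col-0 on NaCl (0.061) were lost, and DESeq2 did not call the same PPDK difference (0.0523).

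Replicate numbers showed no common pairing of the libraries, as deviations from the group means correlated at -0.452 to 0.259 between groups. With 2 libraries per group the sign of these values rests on the numbering, and a batch that crosses replicate numbers was not tested. With the replicate block, the count for ago4-2 against Col-0 on control medium was 1, and for salt it was 10 in ago4-2, 8 in ago4-3 and 7 in Col-0.

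Leaving out 1 library at a time gave 7 to 13 called members for salt in ago4-2 (7 without ago4-2 NaCl replicate 2), 3 to 8 in ago4-3 (3 without ago4-3 NaCl replicate 1, and 5 without any one of the other 3 ago4-3 libraries) and 4 to 13 in Col-0 (4 without either Col-0 control library). On NaCl it gave 5 to 14 for ago4-2 against Col-0 (5 and 6 without ago4-2 NaCl replicate 2 and 1), and 0 to 7 for ago4-3 against ago4-2 (0 and 2 without ago4-2 NaCl replicate 1 and 2, 1 and 3 without ago4-3 NaCl replicate 1 and 2). On control medium it gave 0 to 4 for ago4-2 against Col-0 (0 when Col-0 control replicate 1 was left out, 4 when ago4-2 control replicate 2 was, and 1 for any one of 8 other libraries), 0 to 1 for ago4-3 against Col-0 (1 without ago4-2 control replicate 1) and 0 to 3 for ago4-3 against ago4-2 (3 without ago4-2 control replicate 2, and 0 without any one of 6 other libraries). For the difference of the ago4-2 salt response from that of Col-0 it gave 0 to 1 (0 without any one of the 6 libraries noted for PMDH2). With 2 libraries per group, the group left with 1 library was assumed to vary like the others. The cause of these changes was not tested. Shares of all genes called in the same fits are not given. The rises and falls in these counts are thus not shown to be particular to the members.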
